A study of Homo sapiens with 12 samples.

Results

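The genes described here encode the vacuolar proton pump (V-ATPase) and the ion transporters of the lysosome membrane. They are 39 listed genes among the 26334 of the deposited expression table: 12 subunits of the V1 sector, 9 of the V0 sector, 2 accessory subunits, 4 assembly factors, 5 CLC chloride-proton exchangers with OSTM1 (the partner protein of CLCN7), and 6 cation channels. Of these, 35 reached an FPKM of 1 in at least 3 of the 12 libraries and were tested together with all other such genes, 12649 in all. FPKM counts fragments per length of transcript and per library total, so levels of different genes can be set side by side. RNA came from HK-2, an immortalised line of human renal proximal tubule cells, here carrying a doxycycline (Dox) inducible PRCC-TFE3 gene. PRCC-TFE3 is the fusion transcription factor of a translocation renal cell carcinoma, and the inhibitor, MSC2530818, blocks CDK8 and CDK19, the kinases of the Mediator complex.

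The 4 groups had 3 libraries each, described in the labels as independent biological replicates, and were treated for 48 h. They were Dox plus inhibitor (100 nM), Dox, inhibitor alone (100 nM) and vehicle (DMSO). All groups carried the inducible gene and grew in the same medium with a low content of Tet-approved serum, puromycin and blasticidin S. Whether the cells are 1 clone is not given in the labels. Dox was given only to cells with the inducible gene, and what the fusion does cannot be told apart from what Dox does.

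The V-ATPase pumps protons into lysosomes and endosomes. Its V1 sector sits in the cytosol and hydrolyses ATP, and its V0 sector lies in the membrane and carries the protons. CLC exchangers bring chloride in against protons, TRPML channels (MCOLN genes) and TPC channels release calcium and sodium from the lysosome, and TMEM175 is a potassium and proton channel of the same membrane. TFE3 belongs to the MiT/TFE family, which binds CACGTG-type E-boxes in promoters of lysosomal genes and is known to act on many V-ATPase subunit genes. In the kidney the ubiquitous subunits serve lysosomes of all cells, whereas some isoforms are kept for acid-secreting intercalated cells.

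Promoter sequences were searched for the E-box CACGTG, which reads the same on both strands, and for its longer form GTCACGTG on either strand, which contains it and lies at the centre of the element shared by lysosomal gene promoters. Of the 39 members, 31 matched the RefSeq promoter table (GRCh38.p14, 250 bases before to 50 after the start site). CACGTG was in 8 of these 31 promoters (25.8%), in 10.5% of the 9426 promoters of tested genes and in 7.43% of all 27305 promoters. GTCACGTG was in 6 of the 31 (19.4%), in 4.6% of promoters of tested genes and in 2.53% of all promoters. These 8 promoters are shown because their motif is the one TFE3 is known to bind; capitals mark the motif, and each sequence runs 5′ to 3′ on the strand of its gene.
ATP6V0B, chr1:43974900-43974929, plus strand: gGTCACGTGgtaccggcgcatCACGTGggc
ATP6V0D1, chr16:67481199-67481228, minus strand: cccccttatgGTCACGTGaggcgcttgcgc
ATP6V0E2, chr7:149872876-149872921, plus strand: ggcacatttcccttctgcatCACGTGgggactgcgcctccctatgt
ATP6V1G1, chr9:114587691-114587736, plus strand: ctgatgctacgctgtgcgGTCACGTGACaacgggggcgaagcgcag
CLCN4, chrX:10156915-10156960, plus strand: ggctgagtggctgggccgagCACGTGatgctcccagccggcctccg
CLCN6, chr1:11806159-11806188, plus strand: gctcgagagggcCACGTGACcgtcccgggg
CLCN7, chr16:1475048-1475077, minus strand: atCACGTGgccccgtcgcgcGTCACGTGgc
MCOLN1, chr19:7522563-7522623, plus strand: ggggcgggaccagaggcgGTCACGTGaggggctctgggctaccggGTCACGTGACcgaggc

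Distances are from the RefSeq start site, and the search reached only from 250 bases before to 50 after it, so closeness was partly set by the window. GENCODE starts some of these genes elsewhere, and its loci contain the printed windows of ATP6V0B, ATP6V0D1, CLCN6 and CLCN7. In MCOLN1 the core began 41 and 14 bases before the RefSeq start site, in CLCN7 47 and 27 bases, and in ATP6V0B 57 and 39 bases. ATP6V0D1 had it 59 bases before the start, ATP6V1G1 58, ATP6V0E2 72, CLCN4 40 and CLCN6 20, with another copy in CLCN6 just past the start site, outside the printed window. These matches describe letters in a window and no binding was measured. The members outside the promoter table were ATP6V0D2, ATP6V0E1, ATP6V1A, ATP6V1B2, ATP6V1C1, ATP6V1E2, ATP6V1H and MCOLN2.

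TFE3 was the check of induction. It averaged 84.2 ± 3.1 FPKM in Dox plus inhibitor libraries, 150 ± 4 in Dox libraries, 27.8 ± 1.7 in inhibitor libraries and 35.8 ± 3.1 in vehicle libraries (SD, n = 3 each). Its log2 change was 2.04 ± 0.067 (SE, adjusted p = 1.4e-08) for Dox against vehicle. Values summed per gene do not separate the fusion transcript from resident TFE3. The FPKM of a library summed to between 429208 and 473950, and depth in reads is unknown, so no counting intervals are given. Libraries of 1 group correlated across genes at Pearson r of 0.979 to 0.9932. Replicate 1 stood apart from replicates 2 and 3 in the vehicle, inhibitor and Dox plus inhibitor groups for several GC-poor members, and counts without single libraries are given where they differ.

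Among the proximal tubule markers, 4 of 10 were tested (PAX8, KRT8, KRT18, GGT1), while CUBN, LRP2, SLC34A1, ANPEP and AQP1 stayed at or under 0.44 FPKM and SLC5A2 between 0.26 and 1.38. The untested markers of the differentiated tubule were thus low in this line. The summed level of the 10 markers was 561.65 to 614.09 FPKM in Dox plus inhibitor libraries, 496.62 to 520.41 in Dox, 712.4 to 843.19 in inhibitor and 588.81 to 703.57 in vehicle libraries. Most of this sum was keratin, with KRT8 at 295 ± 30 and KRT18 at 209 ± 18 FPKM in vehicle libraries. With Dox against vehicle, KRT8 (-0.4) and KRT18 (-0.47) were lower, GGT1 was higher (0.28) and PAX8 was not called. The sum is thus no measure of tubule identity. Of 9 intercalated cell markers, 0 were tested, with sums of at most 0.21 FPKM and FOXI1, KIT and ATP6V1G3 at 0 in all 12 libraries. Of 6 osteoclast markers, only the lysosomal genes CTSK and ACP5 were tested, with OCSTAMP and DCSTAMP at 0. The osteoclast sums were 15.29 to 16.63 FPKM in Dox plus inhibitor, 30.51 to 30.91 in Dox, 10.16 to 13.38 in inhibitor and 11.48 to 12.49 in vehicle libraries. Of 4 leukocyte markers only CD68, also a lysosomal protein, was tested. TYROBP was at 0 and PTPRC at or under 0.02. The leukocyte sums were 29.59 to 33.93 FPKM in Dox plus inhibitor, 53.38 to 58.8 in Dox, 25.53 to 31.03 in inhibitor and 34.38 to 42.56 in vehicle libraries. The part of these marker levels in the results was not tested.

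Pump transcripts of HK-2 cells were mostly those of the ubiquitous isoforms, and the make-up of the pump protein was not measured. The restricted isoforms ATP6V0A4 and ATP6V1G2 also passed the filter, at low levels. Per length, the highest mean levels in vehicle libraries were those of ATP6V0E1 (113 ± 4.7 FPKM), ATP6V0C, the proton-binding ring subunit (100 ± 5.3), ATP6V1F (83.9 ± 6.7) and ATP6V1E1 (78.4 ± 4.4). The neighbours in this order ATP6V1F and ATP6V1E1 did not differ beyond their spread. The 4 members below the filter were isoforms of restricted tissues. ATP6V1B1, the B isoform of intercalated cells, lay between 0.03 and 0.37 FPKM, ATP6V1C2 between 0.49 and 0.96, and ATP6V1E2 between 0.26 and 0.6. ATP6V0D2 was listed at 0 in all inhibitor and vehicle libraries, at 0.03, 0.04 and 0 FPKM in Dox plus inhibitor libraries and at 0.24, 0.05 and 0.15 in Dox libraries. Of the a subunits, which occupy 1 place in the pump, ATP6V0A1 averaged 8.46 ± 0.48 FPKM in vehicle libraries, ATP6V0A2 4.09 ± 0.096 and ATP6V0A4 1.16 ± 0.1. The remaining a subunit gene, TCIRG1 (a3), had the highest level of the a subunit genes. TCIRG1 is not among the 39 and was looked up after the other values were seen. It averaged 24 ± 2.8 FPKM in Dox plus inhibitor, 25.1 ± 3.8 in Dox, 26.3 ± 1.9 in inhibitor and 22.7 ± 0.76 in vehicle libraries and was called in 0 of the 5 limma comparisons (0 also at an unadjusted p under 0.05).

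Dox raised most of the module. Of the 35 tested members, 21 were higher in Dox than in vehicle libraries and 1, the calcium and sodium channel gene TPCN1, was lower, at an adjusted p under 0.05 in the limma model of all genes (60% and 2.86% of the members). Of all 12649 genes, 10.6% were called higher and 7.31% lower. The members' median log2 change was 0.45, beside 0.04 over all genes tested. Higher were 8 of 9 V1 subunits (median change 0.63), 5 of 8 V0 subunits (0.41), 4 of 6 of the CLC group (0.76) and 2 of 6 channels (0.17). In bulk RNA, fewer cells of a type and less RNA per cell cannot be told apart. Under another scaling (median ratio), the share of all calls that were higher was 44.9%, beside 59.2% as deposited, and the members' counts stayed at 21 and 1. Of all genes, 8.5% were called higher and 10.4% lower in that fit.

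**Figure D1:**
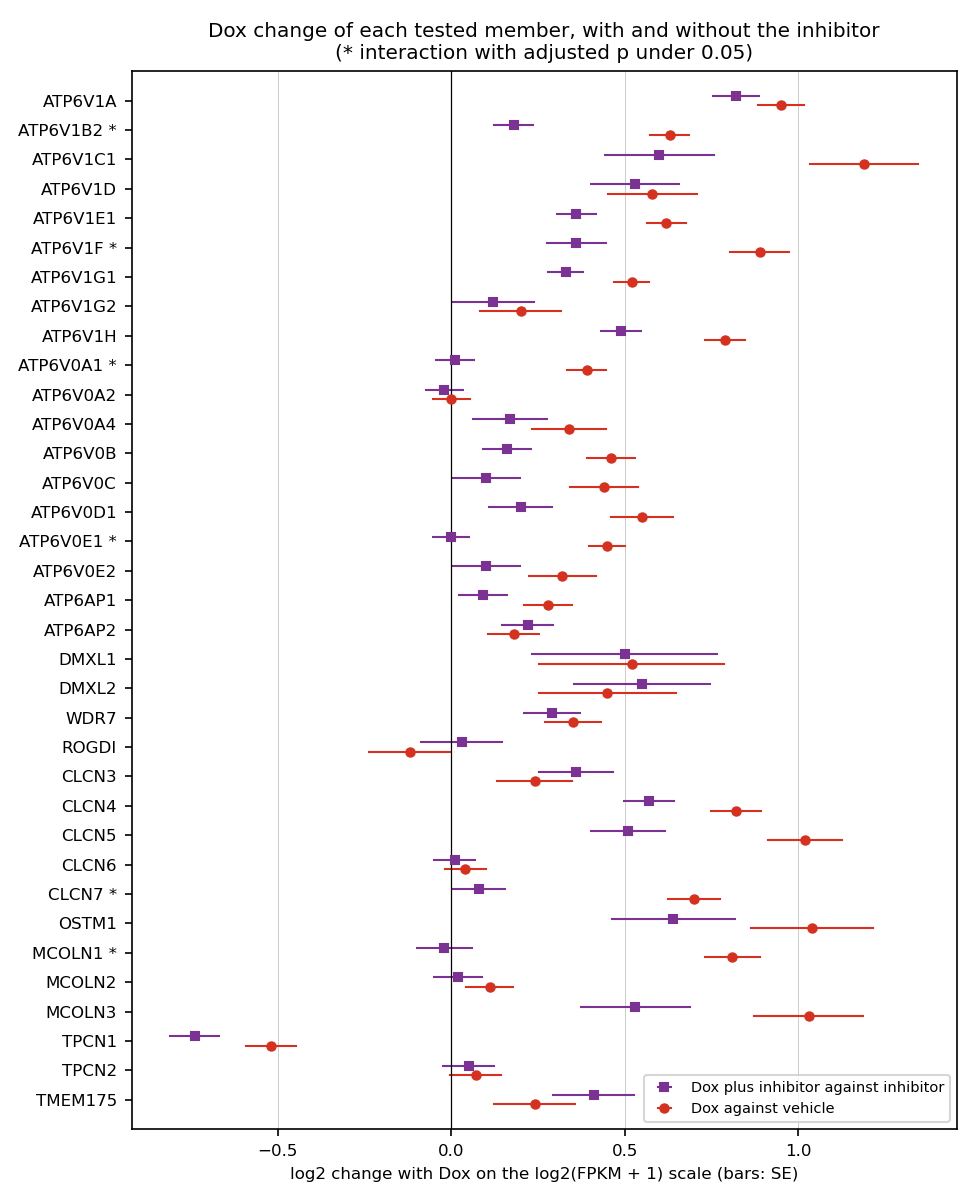
Log2 change (x axis, log2(FPKM + 1) scale) of each tested member (rows, by role) for Dox plus inhibitor against inhibitor (squares) and Dox against vehicle (circles). The SE bars come from the limma fit of all 12 libraries, 3 per group. The circles of 21 members were called higher and the circle of TPCN1 lower; asterisks mark the 6 members whose Dox change was smaller with the inhibitor.

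The V1 subunit with the largest Dox change was ATP6V1C1, the C subunit that joins V1 to V0 and is released when the pump comes apart. It stood at 44.56, 45.81 and 48.91 FPKM in the Dox libraries, against 16.26, 20.62 and 23.07 in the vehicle libraries. Every Dox library lay far above every vehicle library. The log2 change was 1.19 ± 0.16 (adjusted p = 0.00036), a 2.28-fold difference on the FPKM + 1 scale. ATP6V1A (chromosome 3, 113747019 to 113812056, plus strand, GENCODE on GRCh38), the catalytic A subunit that splits ATP, had 33.27, 34.85 and 35.25 FPKM with Dox, against 15.8, 17.21 and 19.05 with vehicle. The groups did not overlap, and the change was 0.95 ± 0.069 (adjusted p = 4.7e-06). ATP6V1B2, its partner B subunit, had 43.69, 43.29 and 43.08 FPKM with Dox, against 28.57, 27.27 and 27.33 with vehicle. Both groups were tight, and its change of 0.63 ± 0.059 (adjusted p = 3.1e-05) is the median of the V1 genes.

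The subunits of the stalks and the rotor moved likewise. ATP6V1F, a subunit of the central rotor, had 158.4, 162.05 and 146.91 FPKM in Dox libraries, against 91.43, 81.9 and 78.43 in vehicle libraries. This is the highest Dox level among V1 genes, and the change was 0.89 ± 0.088 (adjusted p = 4.7e-05). ATP6V1H, which regulates ATP hydrolysis, had 39, 40.64 and 42.83 FPKM with Dox, against 23.64, 23.23 and 22.79 with vehicle (change 0.79 ± 0.061, adjusted p = 7.7e-06). ATP6V1E1, a peripheral stalk subunit, had 121.16, 127.09 and 115.18 FPKM with Dox, against 83.34, 75.14 and 76.65 with vehicle (0.62 ± 0.059, adjusted p = 3.3e-05). In all of these the lowest Dox library exceeded the highest vehicle library. ATP6V1D, the rotor shaft, had 45.96, 42.52 and 47.46 FPKM with Dox, against 25.38, 30.81 and 34.57 with vehicle (0.58 ± 0.13, adjusted p = 0.01). ATP6V1G1, the other stalk subunit, had 75.83, 74.62 and 77.95 FPKM with Dox, against 51.37, 51.4 and 55.53 with vehicle (0.52 ± 0.053, adjusted p = 5.3e-05). Replicate 1 was the lowest vehicle library of ATP6V1D.

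ATP6V1G2, the G isoform best known from neurons, was the tested V1 gene that did not pass, at 1.52, 1.68 and 1.83 FPKM in Dox and 1.86, 1.01 and 1.19 in vehicle libraries, which overlapped. ATP6V0C, ATP6V1G1 and ATP6V1G2 have near-identical or overlapping copies in the genome, and their levels are uncertain if the authors' counting split reads among them. Summed over the 12 V1 genes, Dox libraries held 560.7 to 573.7 FPKM, against 329.7 to 339.9 in vehicle libraries.

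**Figure D2:**
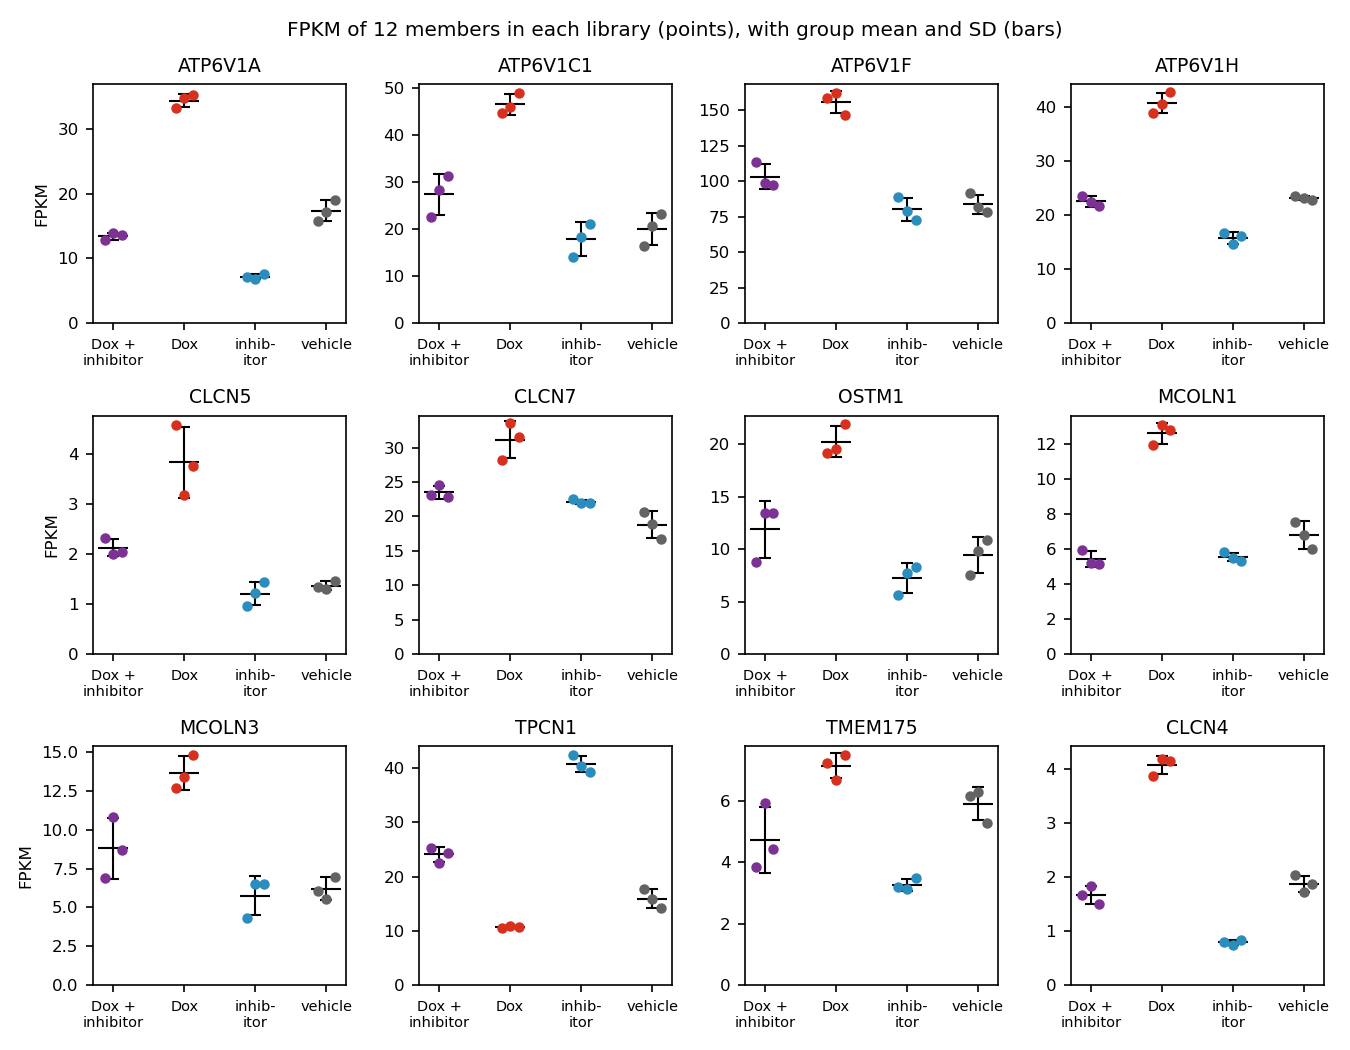
FPKM (y axis, starting at 0) of 12 members in each library (points) in Dox plus inhibitor, Dox, inhibitor and vehicle groups (x axis), with group mean and SD over 3 libraries (bars). The Dox points of ATP6V1C1 lie at 44.56 to 48.91 and the vehicle points at 16.26 to 23.07, whereas TPCN1 is highest in the inhibitor libraries, at 39.34 to 42.37.

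Of the V0 subunits, ATP6V0D1, the subunit that links the rotor to the membrane ring, had 92.33, 94.38 and 87.61 FPKM in Dox libraries, against 70.77, 60.77 and 55.13 in vehicle libraries. The groups were separate although the vehicle libraries spread widely, and the change was 0.55 ± 0.093 (adjusted p = 0.0018). Smaller changes were called in 4 genes: ATP6V0B, a ring subunit, averaged 60.5 ± 3.5 FPKM with Dox and 43.6 ± 2.3 with vehicle, and ATP6V0C, the main ring subunit, 136 ± 10 with Dox and 100 ± 5.3 with vehicle. ATP6V0E1, a small membrane subunit, averaged 155 ± 4 FPKM with Dox and 113 ± 4.7 with vehicle. ATP6V0A1, an a subunit through which protons pass, averaged 11.3 ± 0.32 with Dox and 8.46 ± 0.48 with vehicle. The changes of these 4 genes lay between 0.39 and 0.46 (adjusted p 0.00021 to 0.011). The call of ATP6V0C ended without Dox replicate 3 (0.38, adjusted p = 0.054). ATP6V0A2, the a subunit of the Golgi, was level at 4.09 ± 0.13 FPKM with Dox and 4.09 ± 0.096 with vehicle. ATP6V0A4, the a subunit of intercalated cells, had 1.41, 2.08 and 1.74 FPKM with Dox, against 1.27, 1.14 and 1.07 with vehicle, and ATP6V0E2 averaged 9.49 ± 0.48 with Dox and 7.44 ± 1.3 with vehicle; neither passed the test. The 9 V0 genes summed to 464.1 to 476.2 FPKM in Dox libraries, against 321.2 to 364 in vehicle libraries.

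Of the accessory subunits, ATP6AP1, which helps fold the V0 sector, rose with Dox, to 80.5 ± 2.4 FPKM against 66.4 ± 5.9 with vehicle (change 0.28 ± 0.072, adjusted p = 0.02). This call ended without vehicle replicate 2 (adjusted p = 0.07), vehicle replicate 3 (0.056), Dox replicate 1 (0.065) or Dox replicate 2 (0.075). ATP6AP2, the prorenin receptor, averaged 82.5 ± 4.3 FPKM with Dox and 72.9 ± 6.6 with vehicle and was not called. Among the assembly factors, subunits of the RAVE-like complex that rejoins V1 and V0, WDR7 averaged 2.59 ± 0.035 FPKM with Dox and 1.83 ± 0.18 with vehicle (0.35 ± 0.083, adjusted p = 0.013), a call that ended under quantile normalization (0.26, adjusted p = 0.053). DMXL1 averaged 6.23 ± 0.78 with Dox and 4.16 ± 1.4 with vehicle, DMXL2 3.07 ± 0.34 with Dox and 2 ± 0.56 with vehicle, and ROGDI 3.71 ± 0.51 with Dox and 4.13 ± 0.82 with vehicle, none of them called. In DMXL1 and DMXL2, vehicle replicate 1 was the lowest library, at 2.54 and 1.38 FPKM.

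The CLC exchangers divided. CLCN5 (chromosome X, 49922615 to 50099235, plus strand), the exchanger of early endosomes that is mutated in Dent disease of the proximal tubule, had 4.6, 3.18 and 3.76 FPKM in Dox libraries, against 1.34, 1.31 and 1.47 in vehicle libraries. Each Dox library was above all vehicle libraries. The change was 1.02 ± 0.11 (adjusted p = 9.6e-05), and the added 1 FPKM of the log scale understates it at these low levels. CLCN4, its close relative in endosomes, had 3.88, 4.19 and 4.15 FPKM with Dox, against 2.03, 1.73 and 1.87 with vehicle (0.82 ± 0.075, adjusted p = 2.5e-05). CLCN7 (chromosome 16, 1444934 to 1475580, minus strand), the exchanger of lysosomes, had 28.23, 33.58 and 31.5 FPKM with Dox, against 20.62, 18.94 and 16.74 with vehicle (0.7 ± 0.079, adjusted p = 0.00011). OSTM1 (chromosome 6, 108041409 to 108165854, minus strand), the subunit without which CLCN7 is unstable, had 19.23, 19.56 and 21.95 FPKM with Dox, against 7.56, 9.83 and 10.89 with vehicle (1.04 ± 0.18, adjusted p = 0.002). For these 3 genes too the groups were separate. CLCN3 averaged 20.5 ± 0.84 FPKM with Dox and 17.3 ± 2.3 with vehicle, and CLCN6, a late endosomal exchanger, 7.03 ± 0.47 with Dox and 6.8 ± 0.37 with vehicle, and neither was called.

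Of the cation channels, MCOLN1 (chromosome 19, 7522626 to 7534009, plus strand), the TRPML1 channel that lets calcium out of lysosomes, had 11.93, 13.08 and 12.82 FPKM in Dox libraries, against 7.56, 6.82 and 5.99 in vehicle libraries. Its Dox libraries lay well above the vehicle libraries, with a change of 0.81 ± 0.082 (adjusted p = 5.4e-05). MCOLN3 (TRPML3), found in early endosomes and autophagosomes, had 12.69, 13.4 and 14.84 FPKM with Dox, against 6.06, 5.53 and 6.99 with vehicle (1.03 ± 0.16, adjusted p = 0.0012). TPCN1 (chromosome 12, 113221050 to 113298585, plus strand), the channel TPC1 of endosomes and lysosomes, had 10.46, 10.91 and 10.78 FPKM with Dox, against 17.65, 15.8 and 14.19 with vehicle. It was lower in every Dox library, by 0.52 on average (change -0.52 ± 0.074, adjusted p = 0.00057). TMEM175 had 7.23, 6.69 and 7.49 FPKM with Dox, against 6.15, 6.28 and 5.28 with vehicle. MCOLN2 averaged 6.01 ± 0.092 with Dox and 5.52 ± 0.58 with vehicle, and TPCN2 2.25 ± 0.051 with Dox and 2.11 ± 0.15 with vehicle. These last 3 did not pass the test.

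Beside the Dox change of the members, the E-box was in 6 of the 16 promoters of members that were higher with Dox (37.5%; ATP6V0B, ATP6V0D1, ATP6V1G1, CLCN4, CLCN7, MCOLN1) and in 2 of the 13 of tested members that were not (15.4%; ATP6V0E2, CLCN6). The longer form was in 5 of the 16 (31.2%) and 1 of the 13 (7.69%). The Dox changes chose these 2 sets, and the shares are a description of few promoters.

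With the inhibitor present, fewer members rose with Dox. Between Dox plus inhibitor and inhibitor libraries, 14 of 35 tested members were higher (40%) and TPCN1 was lower (2.86%), while 12.2% of all genes were called higher and 6.06% lower. The members' median change was 0.20, beside 0.08 for all genes. Called higher were 7 of 9 tested V1 subunits (median change 0.36), 4 of 6 of the CLC group (0.43) and 2 of 6 channels (0.03). Of the V0 subunits, 0 of 8 passed in limma (0 of them also at an unadjusted p under 0.05). This V0 count depends on the fit. With the length and GC trend removed, as given below, ATP6V0B, ATP6V0C, ATP6V0D1 and ATP6V0E2 were called higher in limma (adjusted p 0.00031 to 0.02), beside 20.6% of all genes. The 12 members called higher in both Dox comparisons, which share no library, were ATP6V1A, ATP6V1C1, ATP6V1D, ATP6V1E1, ATP6V1F, ATP6V1G1, ATP6V1H, CLCN4, CLCN5, OSTM1, MCOLN3 and WDR7 (57.1% of the 21 and 85.7% of the 14). Both comparisons take their spread from the same fit of all 12 libraries, so they are not independent. Of all genes, 10.6% were called higher without the inhibitor and 12.2% with it. A share of all genes called in both is not given here, so the overlap is not read as particular to the members. The other 2 called with the inhibitor, CLCN3 and TMEM175, missed the threshold for Dox against vehicle (adjusted p = 0.18 each), and their interactions were not called (0.12, adjusted p = 0.84, and 0.17, adjusted p = 0.74). The count of 14 was 7 under median-ratio scaling and 19 with the replicate block, in fits that called 5.56% and 26.5% of all genes higher. It was 7 when replicate 3 of the Dox plus inhibitor group was left out, 8 when its replicate 2 was, and 8 when inhibitor replicate 2 was. Of all genes, 5.4%, 5.92% and 6.73% were called higher in these fits. With only the groups compared in the fit the count was 6, beside 4.74% of all genes. Under median-ratio scaling the share of all calls that were higher was 37.1%, beside 66.7% as deposited.

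Single members show what the counts rest on. ATP6V1A had 12.86, 13.93 and 13.6 FPKM in Dox plus inhibitor libraries, against 7.17, 6.8 and 7.53 in inhibitor libraries (change 0.82 ± 0.069, adjusted p = 3.4e-05). ATP6V1H had 23.62, 22.53 and 21.63 FPKM with Dox plus inhibitor, against 16.74, 14.61 and 16.19 with inhibitor (0.49 ± 0.061, adjusted p = 0.00045). CLCN4 had 1.66, 1.83 and 1.5 FPKM with Dox plus inhibitor, against 0.79, 0.74 and 0.84 with inhibitor (0.57, adjusted p = 0.00063). In these 3 genes the groups were separate, and the call held in every setting in which the gene was tested. CLCN4 lay under an FPKM of 1 in all inhibitor libraries and passed the filter through the other groups. Its rise here is thus no independent support, and its change ran from 0.24 to 0.88 over the settings. ATP6V1E1 had 93.43, 93.84 and 89.79 FPKM with Dox plus inhibitor, against 74.61, 72.99 and 67.57 with inhibitor (0.36, adjusted p = 0.0023), and ATP6V1G1 had 57.83, 62.31 and 62.88 with Dox plus inhibitor, against 47.47, 47.5 and 50.4 with inhibitor (0.33, adjusted p = 0.0023). CLCN5 had 2.33, 2.01 and 2.05 FPKM with Dox plus inhibitor, against 0.97, 1.22 and 1.44 with inhibitor (0.51, adjusted p = 0.012). TPCN1 had 25.27, 22.57 and 24.38 FPKM with Dox plus inhibitor, against 42.37, 40.45 and 39.34 with inhibitor. It was lower with Dox on this higher level too (-0.74 ± 0.074, adjusted p = 0.0001).

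The remaining calls with the inhibitor ended in some of the settings tried. Fits without inhibitor replicate 2, Dox plus inhibitor replicate 2 or Dox plus inhibitor replicate 3 also called fewer of all genes higher (6.73%, 5.92% and 5.4%, beside 12.2%). ATP6V1C1 had 22.59, 28.17 and 31.26 FPKM with Dox plus inhibitor, against 14.09, 18.3 and 21.1 with inhibitor (0.6 ± 0.16, adjusted p = 0.026), and OSTM1 had 8.77, 13.44 and 13.45 with Dox plus inhibitor, against 5.59, 7.74 and 8.34 with inhibitor (0.64, adjusted p = 0.03). In both genes replicate 1 was the lowest library of its group. Each of the calls of ATP6V1C1 and OSTM1 ended when replicate 1 or 2 of the inhibitor group or replicate 2 or 3 of the Dox plus inhibitor group was left out, with changes of 0.44 to 0.62 for ATP6V1C1 and 0.49 to 0.69 for OSTM1 (adjusted p 0.051 to 0.1 and 0.054 to 0.11 over the settings that ended them). MCOLN3 had 6.88, 10.82 and 8.69 FPKM with Dox plus inhibitor, against 4.32, 6.49 and 6.49 with inhibitor (0.53, adjusted p = 0.043), and its call ended in 15 of 25 settings (0.32 to 0.61, adjusted p 0.054 to 0.15), 8 of them without a single library. ATP6V1D had 31.57, 33.27 and 32.29 FPKM with Dox plus inhibitor, against 17.65, 23.91 and 25.62 with inhibitor (0.53, adjusted p = 0.019), lost when replicate 2 (0.51, adjusted p = 0.064) or 3 (0.53, adjusted p = 0.059) of the Dox plus inhibitor group was left out. ATP6V1F had 113.61, 98.84 and 97.37 FPKM with Dox plus inhibitor, against 89.2, 78.79 and 72.97 with inhibitor (0.36, adjusted p = 0.018), lost when inhibitor replicate 2 (0.35, adjusted p = 0.058) or replicate 1 of Dox plus inhibitor (0.29, adjusted p = 0.055) was left out.

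TMEM175 had 3.85, 5.93 and 4.43 FPKM in Dox plus inhibitor libraries, against 3.19, 3.12 and 3.47 in inhibitor libraries (0.41 ± 0.12, adjusted p = 0.032). The groups were separate, with Dox plus inhibitor replicate 2 highest, and the call ended without that library (0.27, adjusted p = 0.089), Dox plus inhibitor replicate 3 (0.45, adjusted p = 0.067), inhibitor replicate 1 (0.40, adjusted p = 0.076) or inhibitor replicate 2 (0.39, adjusted p = 0.089). CLCN3 averaged 20.6 ± 0.92 FPKM with Dox plus inhibitor and 15.9 ± 2.6 with inhibitor (0.36 ± 0.11, adjusted p = 0.049), and this call ended in 15 of 25 settings (adjusted p 0.055 to 0.14), 9 of them without a single library. WDR7 averaged 1.66 ± 0.15 FPKM with Dox plus inhibitor and 1.18 ± 0.16 with inhibitor (0.29, adjusted p = 0.035), and its call ended in 13 of 24 settings (adjusted p 0.053 to 0.13), 7 of them without a single library. Same-numbered libraries of the Dox plus inhibitor and inhibitor groups deviated together. With the replicate number as a block over all 12 libraries, 5 more members were called higher: ATP6V0D1 (0.2, adjusted p = 0.02), ATP6V1B2 (0.18, adjusted p = 0.016), ATP6AP2 (0.22, adjusted p = 0.0083), DMXL1 (0.5, adjusted p = 0.013) and DMXL2 (0.55, adjusted p = 0.012). In a block fit of only the groups compared, 18 members were higher, beside 24.5% of all genes.

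Across all genes, the Dox change fell as the GC content of the transcript rose, with Spearman rho -0.56 with and -0.38 without the inhibitor over the 11996 tested genes that have a GC value (94.8%). Genes are not independent replicates, so no p is given. The median GC content was 49.8%, and OSTM1 (39.7%), MCOLN3 (39.6%) and ATP6V1C1 (39.4%) lay among the GC-poor genes, as did DMXL1 (38.6%) and DMXL2 (40.8%). Of the tested V0 genes, ATP6V0B (58.9%), ATP6V0C (65.1%), ATP6V0D1 (56.8%) and ATP6V0E2 (62.2%) lay above the median and the others below it. In a fit with this trend and that of length removed, 23 members were higher with Dox against vehicle, beside 17.4% of all genes in that fit. With the inhibitor 20 were higher, beside 20.6% of all genes, among them ATP6V0B (0.27), ATP6V0C (0.27), ATP6V0D1 (0.3), ATP6V0E2 (0.25), ATP6AP1 (0.22) and CLCN7 (0.25), while MCOLN3 (0.32) and WDR7 (0.19) were no longer called.

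The interaction, which subtracts the Dox change in cells without inhibitor from that in cells with it, was called in 6 members with a smaller Dox change in the presence of the inhibitor and in 0 with a larger one (17.1% and 0% of the tested members), where limma gave 15 members an unadjusted p under 0.05 in the negative and 0 in the positive direction. Over all genes 1.91% were called in the negative direction and 0.909% in the positive one. The 6 were MCOLN1, CLCN7, ATP6V0E1, ATP6V1B2, ATP6V1F and ATP6V0A1, and the median over all 35 members was -0.21, beside 0.05 for all genes.

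MCOLN1 had the largest difference. It stood at 5.96, 5.22 and 5.14 FPKM in Dox plus inhibitor libraries, against 5.81, 5.48 and 5.32 in inhibitor libraries. These overlapped, and the change had a 95% interval of -0.2 to 0.16. The difference from the Dox change without the inhibitor was -0.83 ± 0.12 (95% interval -1.09 to -0.58, adjusted p = 0.0029). CLCN7 had 23.1, 24.59 and 22.86 FPKM with Dox plus inhibitor, against 22.46, 21.96 and 21.92 with inhibitor, a change with a 95% interval of -0.09 to 0.26. Its groups did not overlap but lay within a few FPKM, and the difference was -0.62 ± 0.11 (95% interval -0.86 to -0.37, adjusted p = 0.013).

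Of the other 4, ATP6V0E1 averaged 129 ± 3.7 FPKM with Dox plus inhibitor and 129 ± 7.7 with inhibitor (interval of the change -0.12 to 0.12), with a difference of -0.45 ± 0.078 (adjusted p = 0.0099). ATP6V0A1 averaged 9.95 ± 0.29 FPKM with Dox plus inhibitor and 9.9 ± 0.46 with inhibitor (interval -0.12 to 0.14), with a difference of -0.38 ± 0.082 (adjusted p = 0.033). ATP6V1B2 had 27.61, 27.58 and 25.25 FPKM with Dox plus inhibitor, against 25.06, 23.81 and 21.75 with inhibitor (interval 0.05 to 0.31), with a difference of -0.45 ± 0.083 (adjusted p = 0.016). ATP6V1F, whose values are given above, differed by -0.53 ± 0.12 (adjusted p = 0.049) and kept a called Dox change under the inhibitor. The calls of MCOLN1, CLCN7 and ATP6V0E1 held in all 23 settings. That of ATP6V1B2 ended without vehicle replicate 2 (-0.43, adjusted p = 0.056), Dox replicate 2 (-0.45, adjusted p = 0.053) or inhibitor replicate 2 (-0.44, adjusted p = 0.052). Those of ATP6V0A1 (-0.41 to -0.34, adjusted p 0.055 to 0.1) and ATP6V1F (-0.57 to -0.45, adjusted p 0.052 to 0.14) ended in 12 of 23 settings each, 11 and 9 of them without a single library.

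ATP6V1A is the contrasting case. Its level under the inhibitor was less than that in vehicle, yet its Dox change was 0.82 with the inhibitor and 0.95 without it, and the difference of -0.13 had a 95% interval of -0.34 to 0.09 (adjusted p = 0.65). TFE3 itself was lower by 0.82 on the log2 scale in Dox plus inhibitor than in Dox libraries (change -0.82, adjusted p = 5e-06), with an interaction of -0.47 ± 0.095 (adjusted p = 0.023) that ended in 7 of 23 settings, each without a single library (-0.49 to -0.45, adjusted p 0.055 to 0.078). Its part in the smaller Dox changes of the members was not tested.

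**Figure D3:**
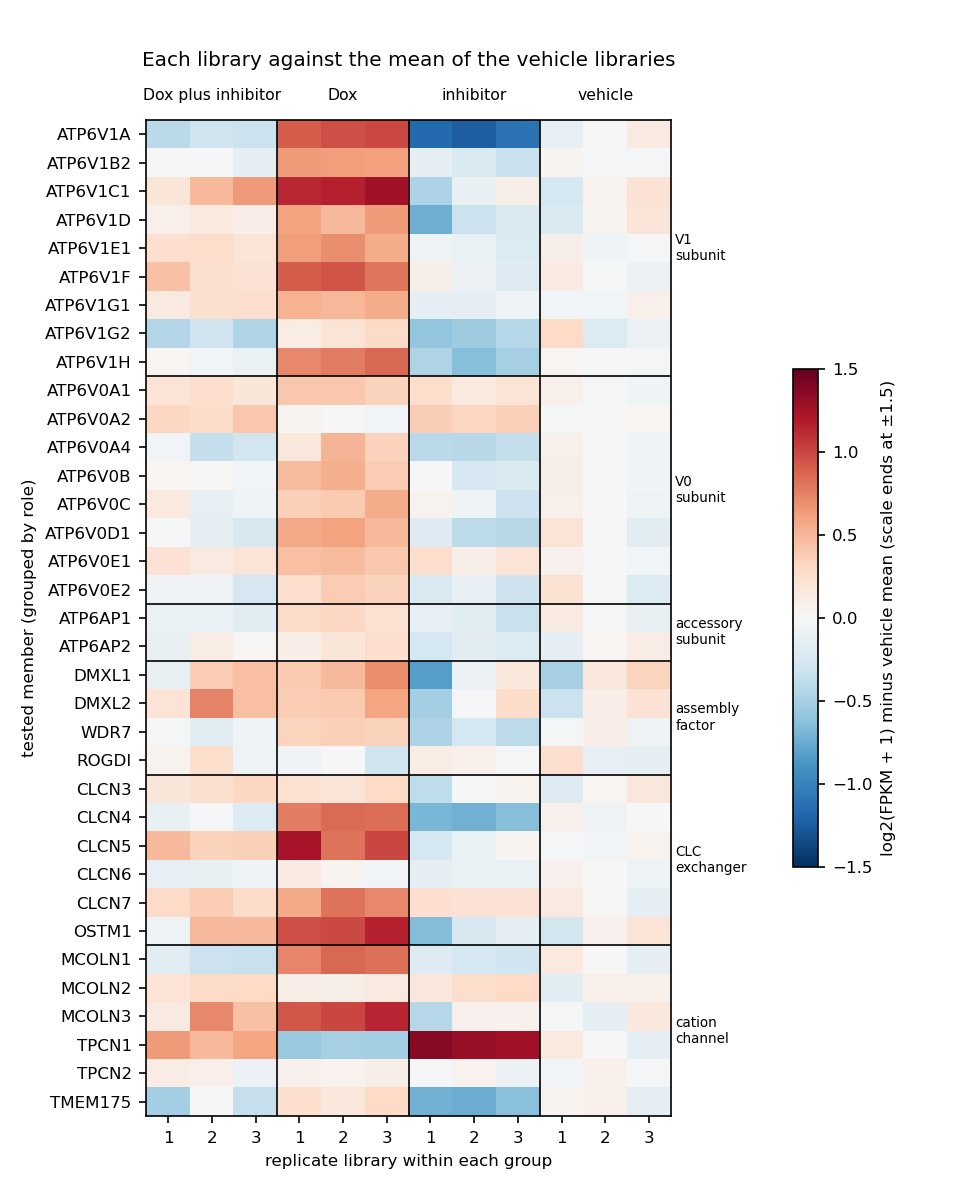
Each of the 12 libraries (columns, in the groups Dox plus inhibitor, Dox, inhibitor and vehicle) for each tested member (rows, by role), coloured by log2(FPKM + 1) minus the mean of the vehicle libraries, with the colour scale ending at ±1.5. The Dox columns are red for V1 subunits, CLCN4, CLCN5, CLCN7, OSTM1, MCOLN1 and MCOLN3, and the TPCN1 row runs the other way, with its deepest red in the inhibitor columns.

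The inhibitor without Dox lowered part of the module and raised another. Between inhibitor and vehicle libraries, 13 of 35 tested members were lower (37.1%) and 6 higher (17.1%), beside 26.3% of all genes called lower and 11.7% higher. The median change was -0.16 for the members and -0.12 for all genes. That overall median moved to -0.01 under median-ratio scaling, where 54.7% of all calls were higher, beside 30.8% as deposited, and 7 members were lower and 6 higher (20% and 17.1%), near the 14.5% and 17.5% of all genes under that scaling. Each change in this comparison is therefore followed by its value relative to the median of all genes as deposited. The count of 6 higher members was 3 without vehicle replicate 2, vehicle replicate 3, inhibitor replicate 1 or inhibitor replicate 3. Of all genes, 9.65%, 9.93%, 11% and 11.2% were called higher in these fits.

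The strongest fall was that of the catalytic subunit. ATP6V1A had 7.17, 6.8 and 7.53 FPKM in inhibitor libraries, against 15.8, 17.21 and 19.05 in vehicle libraries. The groups lay far apart, with a change of -1.17 ± 0.069 (adjusted p = 4e-07; -1.05 relative to all genes), or 0.446-fold. No other V1 gene came near it: ATP6V1H had 16.74, 14.61 and 16.19 FPKM with inhibitor, against 23.64, 23.23 and 22.79 with vehicle (-0.53, adjusted p = 6.2e-05; -0.41 relative). ATP6V1G2 had 0.54, 0.61 and 0.73 FPKM with inhibitor, against 1.86, 1.01 and 1.19 with vehicle (-0.52 ± 0.12, adjusted p = 0.0067, and -0.4 relative). This gene passed the filter only through vehicle and Dox libraries, so its fall is no independent support. ATP6V1B2 (-0.23, -0.11 relative) and ATP6V1D (-0.42, -0.31 relative) were called as deposited and lost under median-ratio scaling, with adjusted p = 0.16 and 0.099, and ATP6V1D also without vehicle replicate 2, vehicle replicate 3 or inhibitor replicate 1 (-0.41, -0.32 and -0.27, adjusted p = 0.072, 0.091 and 0.069). ATP6V1C1, ATP6V1E1, ATP6V1F and ATP6V1G1 were not called, with means of 17.8 ± 3.5, 71.7 ± 3.7, 80.3 ± 8.2 and 48.5 ± 1.7 FPKM with inhibitor and 20 ± 3.4, 78.4 ± 4.4, 83.9 ± 6.7 and 52.8 ± 2.4 with vehicle.

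V0 genes went in both directions. ATP6V0A4 had 0.63, 0.62 and 0.68 FPKM in inhibitor libraries, against 1.27, 1.14 and 1.07 in vehicle libraries (-0.39 ± 0.11, adjusted p = 0.014; -0.28 relative). ATP6V0D1 had 53.82, 46.75 and 46.11 FPKM with inhibitor, against 70.77, 60.77 and 55.13 with vehicle (-0.34, adjusted p = 0.015; -0.22 relative), a call lost under median-ratio scaling (adjusted p = 0.09), without inhibitor replicate 2 (-0.31, adjusted p = 0.055) or without inhibitor replicate 3 (-0.3, adjusted p = 0.05, rounded). The levels of ATP6V0A4 were near the filter, which this gene passed mainly through vehicle and Dox libraries, so its fall is no independent support. In 3 V0 genes the inhibitor libraries were higher: ATP6V0A2, at 5.48 ± 0.11 FPKM with inhibitor and 4.09 ± 0.096 with vehicle (0.35 ± 0.057, adjusted p = 0.0007; 0.47 relative), ATP6V0A1, at 9.9 ± 0.46 with inhibitor and 8.46 ± 0.48 with vehicle (0.21, adjusted p = 0.017; 0.32 relative), and ATP6V0E1, at 129 ± 7.7 with inhibitor and 113 ± 4.7 with vehicle (0.19, adjusted p = 0.021; 0.3 relative). Leaving out vehicle replicate 2, vehicle replicate 3 or inhibitor replicate 1 ended the calls of ATP6V0A1 (0.17 to 0.2, adjusted p 0.051 to 0.056) and ATP6V0E1 (0.15 to 0.17, adjusted p 0.061 to 0.074), as did inhibitor replicate 3 for ATP6V0E1 (adjusted p = 0.056). ATP6V0B, ATP6V0C and ATP6V0E2 averaged 39.1 ± 3.8, 93.2 ± 12 and 6.2 ± 0.48 FPKM with inhibitor and 43.6 ± 2.3, 100 ± 5.3 and 7.44 ± 1.3 with vehicle, and were not called. ATP6AP1, at 57.1 ± 4.5 FPKM with inhibitor and 66.4 ± 5.9 with vehicle, and ATP6AP2, at 62.6 ± 2 with inhibitor and 72.9 ± 6.6 with vehicle, were called lower as deposited (-0.21 each; -0.1 relative) but not under median-ratio scaling (adjusted p = 0.33 and 0.39), and 9 and 17 of 25 settings ended these calls.

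TPCN1 had the largest rise of the module under the inhibitor, at 42.37, 40.45 and 39.34 FPKM, against 17.65, 15.8 and 14.19 in vehicle libraries. The change was 1.31 ± 0.074 (adjusted p = 2.8e-07; 1.43 relative), or 2.48-fold. TMEM175 had 3.19, 3.12 and 3.47 FPKM with inhibitor, against 6.15, 6.28 and 5.28 with vehicle (-0.69 ± 0.12, adjusted p = 0.00079; -0.58 relative), and CLCN4 had 0.79, 0.74 and 0.84 with inhibitor, against 2.03, 1.73 and 1.87 with vehicle (-0.68, adjusted p = 4.1e-05; -0.57 relative). In each of these 3 genes the inhibitor libraries were separate from the vehicle libraries, and the call held in every setting in which the gene was tested. All inhibitor libraries of CLCN4 lay under an FPKM of 1, and it passed the filter through the other groups. Its fall is thus no independent support, and its change ran from -1.03 to -0.29 over the settings. MCOLN1 had 5.81, 5.48 and 5.32 FPKM with inhibitor, against 7.56, 6.82 and 5.99 with vehicle (-0.25, adjusted p = 0.033; -0.13 relative), lost under median-ratio scaling (adjusted p = 0.2) and without vehicle replicate 1 (-0.18), vehicle replicate 2 (-0.24), inhibitor replicate 2 (-0.24) or inhibitor replicate 3 (-0.22; adjusted p 0.085 to 0.1). CLCN7 had 22.46, 21.96 and 21.92 FPKM with inhibitor, against 20.62, 18.94 and 16.74 with vehicle (0.23, adjusted p = 0.039; 0.35 relative), a call that 11 of 25 settings ended (adjusted p 0.052 to 0.14), 7 of them without a single library. MCOLN2 averaged 6.71 ± 0.34 FPKM with inhibitor and 5.52 ± 0.58 with vehicle (0.24, adjusted p = 0.02; 0.36 relative), lost without vehicle replicate 1, inhibitor replicate 2 or inhibitor replicate 3 (0.17, 0.23 and 0.22, adjusted p = 0.055, 0.062 and 0.063). WDR7 averaged 1.18 ± 0.16 with inhibitor and 1.83 ± 0.18 with vehicle (-0.37, adjusted p = 0.0044; -0.26 relative). CLCN3, CLCN5, CLCN6, OSTM1, MCOLN3, TPCN2, DMXL1, DMXL2 and ROGDI were not called.

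With Dox present, the inhibitor lowered most members. Between Dox plus inhibitor and Dox libraries, 25 of 35 tested members were lower (71.4%) and 2 higher (5.71%), while 20.8% of all genes were called lower and 11.3% higher. The median change was -0.44 for the members and -0.08 for all genes. All 9 tested V1 subunits were lower, as were 7 of 8 V0 subunits, 4 of 6 of the CLC group, 3 of 6 channels, 1 of 2 accessory subunits and 1 of 4 assembly factors. These counts include ATP6V1G2 and ATP6V0A4, which passed the filter only or mainly through vehicle and Dox libraries. Under median-ratio scaling 53.2% of all calls were higher, beside 35.3% as deposited, and 24 members were lower and 3 higher. Of all genes, 13.5% were called lower and 15.4% higher in that fit. Summed FPKM was 376.4 to 385 in Dox plus inhibitor and 560.7 to 573.7 in Dox libraries for V1, and 340 to 371.8 in Dox plus inhibitor and 464.1 to 476.2 in Dox libraries for V0.

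**Figure D4:**
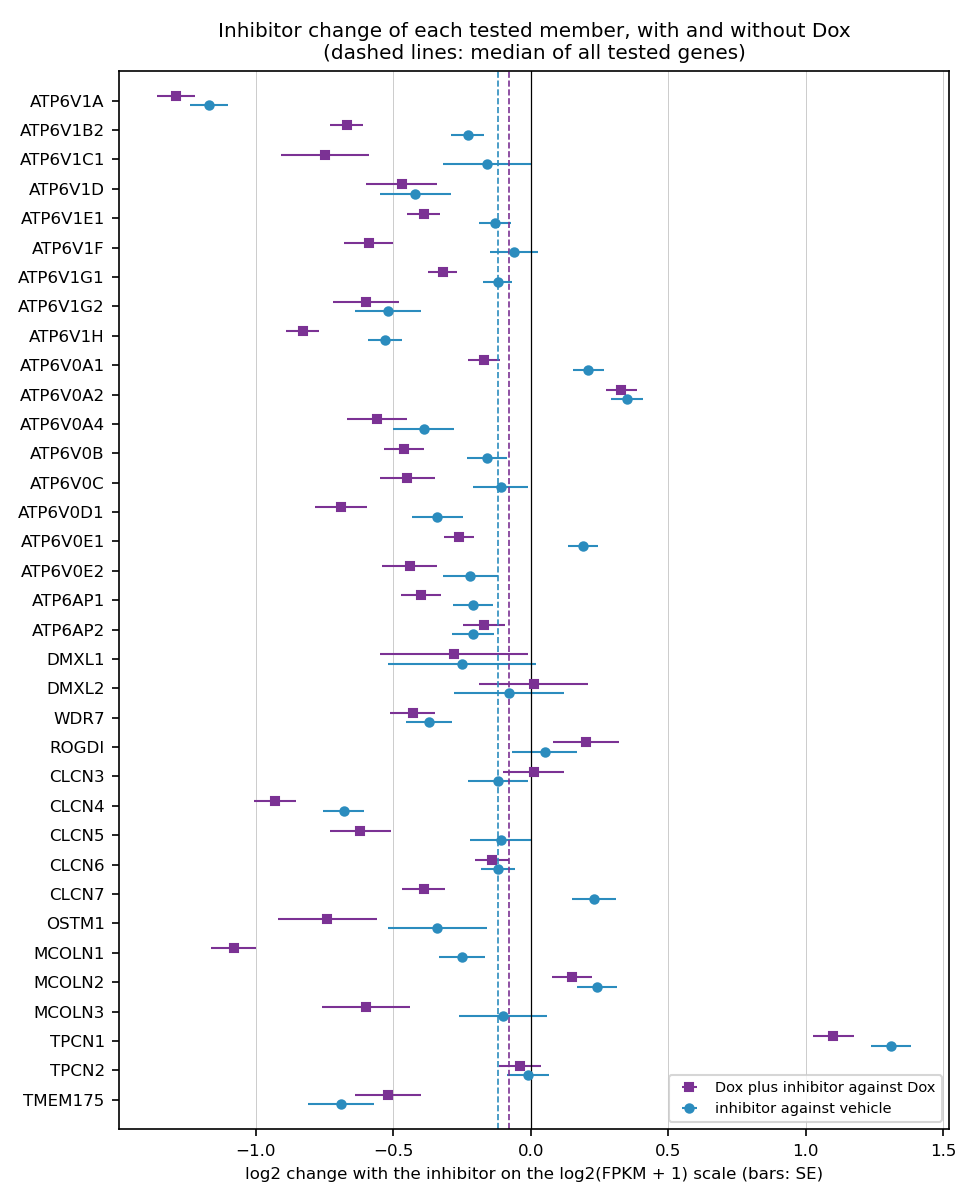
Log2 change (x axis, log2(FPKM + 1) scale) of each tested member (rows, by role) for Dox plus inhibitor against Dox (squares) and inhibitor against vehicle (circles). The SE bars come from the limma fit of all 12 libraries, 3 per group. Dashed lines lie at the medians of all tested genes (-0.08 and -0.12). ATP6V1A lies farthest to the left in both comparisons (-1.29 and -1.17) and TPCN1 farthest to the right (1.1 and 1.31).

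ATP6V1A again had the largest fall, at 12.86, 13.93 and 13.6 FPKM in Dox plus inhibitor libraries, against 33.27, 34.85 and 35.25 in Dox libraries (-1.29 ± 0.069, adjusted p = 1.9e-07, or 0.408-fold). Its Dox plus inhibitor libraries lay under even the vehicle libraries. MCOLN1 followed, at 5.96, 5.22 and 5.14 FPKM with Dox plus inhibitor, against 11.93, 13.08 and 12.82 with Dox (-1.08 ± 0.082, adjusted p = 3e-06). CLCN4 (-0.93, adjusted p = 4.6e-06), ATP6V1H (-0.83, adjusted p = 2.4e-06), ATP6V1C1 (-0.75, adjusted p = 0.0039), OSTM1 (-0.74, adjusted p = 0.008), ATP6V0D1 (-0.69, adjusted p = 0.00021) and ATP6V1B2 (-0.67, adjusted p = 8e-06) came next, from the library values given above. Smaller falls beyond 0.5 were those of CLCN5 (-0.62, adjusted p = 0.0016), ATP6V1F (-0.59, adjusted p = 0.00043) and MCOLN3 (-0.6, adjusted p = 0.015), the last one lost without Dox replicate 3 (-0.54, adjusted p = 0.058) or Dox plus inhibitor replicate 1 (-0.45, adjusted p = 0.057).

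Also lower were 3 genes that Dox alone did not raise past the threshold. ATP6V0A4 had 1.09, 0.69 and 0.79 FPKM with Dox plus inhibitor, against 1.41, 2.08 and 1.74 with Dox (-0.56 ± 0.11, adjusted p = 0.0023). ATP6V1G2 had 0.72, 0.89 and 0.7 FPKM with Dox plus inhibitor, against 1.52, 1.68 and 1.83 with Dox (-0.6 ± 0.12, adjusted p = 0.0036). TMEM175 had 3.85, 5.93 and 4.43 FPKM with Dox plus inhibitor, against 7.23, 6.69 and 7.49 with Dox (-0.52, adjusted p = 0.0056). None of these groups overlapped. ATP6V1G2 reached an FPKM of 1 only in vehicle and Dox libraries, and ATP6V0A4 only there and in Dox plus inhibitor replicate 1 (1.09). Both genes thus passed the filter through the groups in which they are high, and their falls with the inhibitor are no independent support. Changes under 0.5 were called for ATP6V1D (-0.47), ATP6V0B (-0.46), ATP6V0C (-0.45), ATP6V0E2 (-0.44), WDR7 (-0.43), ATP6AP1 (-0.4), ATP6V1E1 (-0.39), CLCN7 (-0.39), ATP6V1G1 (-0.32), ATP6V0E1 (-0.26) and ATP6V0A1 (-0.17). The call of ATP6V1D ended without Dox replicate 1 (-0.46, adjusted p = 0.053) or Dox replicate 3 (-0.44, adjusted p = 0.06), and that of ATP6V0A1 under median-ratio scaling (-0.1, adjusted p = 0.24) and in 12 further settings, 9 of them without a single library.

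The 2 genes that were higher were TPCN1, at 25.27, 22.57 and 24.38 FPKM with Dox plus inhibitor, against 10.46, 10.91 and 10.78 with Dox (1.1 ± 0.074, adjusted p = 1.2e-06, or 2.14-fold), and ATP6V0A2, at 5.41 ± 0.27 with Dox plus inhibitor and 4.09 ± 0.13 with Dox (0.33, adjusted p = 0.0012). Both were higher with the inhibitor in the absence of Dox as well, so they are 2 of the 6 called there (33.3%) and 2 of 2 here (100%). Of the members lower with the inhibitor, 12 were called in both comparisons, which share no library but share 1 fit (92.3% of the 13 without Dox and 48% of the 25 with Dox): ATP6V0A4, ATP6V0D1, ATP6V1A, ATP6V1B2, ATP6V1D, ATP6V1G2, ATP6V1H, ATP6AP1, CLCN4, MCOLN1, TMEM175 and WDR7. Of all genes, 26.3% were called lower and 11.7% higher without Dox, and 20.8% lower and 11.3% higher with it. A share of all genes called in both is not given here, so the overlap is not read as particular to the members. Among these members, ATP6V0A4 and ATP6V1G2 passed the filter mainly or only through libraries without the inhibitor. CLCN4 passed it through every group except the inhibitor alone. ATP6V0A1, ATP6V0E1 and CLCN7 were called higher with the inhibitor without Dox and lower with it, and all 3 are among the 6 interaction calls.

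TPCN1 ran against the median of the members in all 4 of these comparisons. Its mean level was 24.1 ± 1.4 FPKM with Dox plus inhibitor, 10.7 ± 0.23 with Dox, 40.7 ± 1.5 with inhibitor and 15.9 ± 1.7 with vehicle. Inhibitor libraries were highest, then Dox plus inhibitor, vehicle and Dox libraries, and no neighbours in this order overlapped. The Dox change was -0.74 with and -0.52 without the inhibitor, and the difference between them was not called (-0.21, adjusted p = 0.4). The other TPC gene, TPCN2, stayed between 1.93 and 2.35 FPKM in all 12 libraries.

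Genes outside the 39 members that serve the same processes were counted from a list of pump assembly and regulation (14 genes, 11 tested) and a list of other endolysosomal ion transport with the PIKFYVE lipid kinase complex, whose product opens TRPML and TPC channels (12 genes, 11 tested). Of the 11 tested genes of the assembly list, 5 were higher and 1 lower with Dox against vehicle, with a median change of 0.24. Of all genes, 10.6% were called higher and 7.31% lower. Whether the lists differ from all genes was not tested. The 5 were OXR1 (1.27 ± 0.26), a TLDc protein that binds the pump, RNASEK (0.54), a small subunit of the V0 sector, TMEM9B (0.38), VMA21 (0.3), the chaperone of V0 assembly, and CCDC115 (0.24), another assembly factor. The gene listed as TLDC1 (MEAK7) was lower (-0.34). OXR1 had 17.39, 15.95 and 19.62 FPKM with Dox, against 4.36, 7.25 and 9.41 with vehicle, so that its groups were separate and its vehicle libraries widely spread. Between Dox plus inhibitor and inhibitor libraries, OXR1 (1.03), NCOA7 (0.42) and TMEM9B (0.28) were higher and TLDC1 lower (-0.33), beside 12.2% and 6.06% of all genes. The inhibitor lowered TMEM9B (-0.7), RILP (-0.39), WFS1 (-0.23) and CCDC115 (-0.21) against vehicle, and TMEM9B (-0.8), RILP (-0.79), CCDC115 (-0.34), TMEM199 (-0.32) and WFS1 (-0.22) in the presence of Dox. Of all genes, 26.3% were called lower against vehicle and 20.8% in the presence of Dox.

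In the ion transport list, FIG4 (0.68) and VAC14 (0.68), the phosphatase and the scaffold of the PIKFYVE complex, and TMEM206 (PACC1, 0.27), a proton-activated chloride channel, were higher with Dox against vehicle. KCNMA1 (-0.94), a calcium-activated potassium channel, and HN1L (JPT2, -0.31), which binds the messenger NAADP of TPC channels, were lower. VAC14 had 22.45, 22.8 and 21.83 FPKM with Dox plus inhibitor, 32.62, 37.17 and 35.09 with Dox, 24.36, 24.09 and 21.55 with inhibitor and 23.3, 21.35 and 19.94 with vehicle. Like MCOLN1 it stood apart in the Dox libraries, with an interaction of -0.73 ± 0.1 (adjusted p = 0.0028). With the inhibitor present, Dox changed FIG4 (0.54), KCNMA1 (-0.74) and HN1L (-0.21). The inhibitor against vehicle raised TMEM63A (0.46), KCNMA1 (0.36), TMEM206 (0.28) and HN1L (0.19), and with Dox present it raised KCNMA1 (0.55), TMEM63A (0.51) and HN1L (0.3) and lowered VAC14 (-0.62), SLC12A9 (-0.26) and FIG4 (-0.23). Of all genes, the inhibitor raised 11.7% against vehicle and 11.3% with Dox present. The other shares of all genes are those given with the assembly list. Of the 47 such calls in both lists and the TFE3 and PRCC rows, 25 held in every setting tried. For Dox against vehicle, VMA21, CCDC115 and TMEM206 were the calls that most settings ended (10, 11 and 8 of 25), and with the inhibitor present the call of TMEM9B ended in 16 of 25 settings (adjusted p 0.052 to 0.16), that of NCOA7 in 9 of 24 (adjusted p 0.054 to 0.11) and that of OXR1 in 3 of 25, each without a single library (0.78 to 0.95, adjusted p 0.062 to 0.078).

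The genes whose levels over the 12 libraries were most like those of ATP6V1C1, the member with the largest Dox change, were RCBTB1 (Pearson r 0.994), KLHL24 (0.992), PROS1 (0.991), RHOQ (0.99) and ARMCX3 (0.988). These r values are descriptions over 12 libraries in 4 groups, which share group differences and the deviation of replicate 1. RCBTB1 for example averaged 8.14 ± 0.8 FPKM in Dox plus inhibitor, 12.9 ± 0.46 in Dox, 5.56 ± 0.79 in inhibitor and 6.25 ± 0.64 in vehicle libraries. Among the members the most alike were OSTM1 (0.986), ATP6V1G1 (0.974), MCOLN3 (0.963), CLCN5 (0.934) and ATP6V1D (0.934), and the least alike TPCN1 (-0.738), ROGDI (-0.511) and ATP6V0A2 (-0.403).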

How the data were processed

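Poly(A) RNA was sequenced in 12 HK-2 libraries, with total RNA extracted by TRIzol and stranded mRNA libraries, per the labels' protocols. The authors deposited 1 table of FPKM values per gene and library. Listed in the submitters' processing notes, with no role or order, are the builds GRCh38.p13 and hg38, Salmon 1.9.0 and Trim Galore 0.6.7. How FPKM were calculated, and on which annotation, is not given in the sources used here. Columns were matched to samples by name, and 0 columns were left unused. Depth in reads is unknown.

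The scale of analysis was log2(FPKM + 1) of the deposited values, with no further scaling, so that fold changes understate those of low genes. Genes with an FPKM of at least 1 in at least 3 of 12 libraries (12649) were fitted with limma 3.58.1 in R 4.3.3 (4 group means, 8 residual degrees of freedom, intensity trend). Two-sided p-values were adjusted by Benjamini-Hochberg over all tested genes and called under 0.05. Errors are SD for FPKM and SE for changes. The scripts were tested on simulated data. Gene loci, transcript lengths and GC content came from GENCODE (GRCh38), promoters from RefSeq (GRCh38.p14). Older symbols of the table were matched through RefSeq synonyms.

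Members and lists were chosen with earlier results of these data known, and counts of list members are no independent evidence. Library values were printed for members called at a change of at least 0.5, other members by group means or ranges, listed pathway genes where called, and the 5 genes most like the member with the largest Dox change. Replicate numbers come from the sample titles. Deviations from group means correlated between same-numbered libraries at 0.55, 0.13 and 0.34 for Dox plus inhibitor with inhibitor, where each was over 0.1, and these numbers were taken to pair. For inhibitor with vehicle they were 0.69, 0.097 and 0.51, the middle one just under 0.1. Over all groups same-numbered r ran from -0.09 to 0.69 and other r from -0.59 to 0.24. Alternatives covered the pseudocount, filter, scaling, trend, libraries fitted, replicate block, length and GC, and each library left out. The block with only the groups compared was added after seeing the data. A further marker of the proximal tubule list is not reported here.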

Additional observations from a re-analysis of the deposited data

Results flagged for a closer look

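The Dox change of 6 members differed between cells with and without the inhibitor by the interaction test. The difference (Dox change with the inhibitor minus without it, log2 scale) was -0.83 for MCOLN1, -0.62 for CLCN7, -0.53 for ATP6V1F, -0.45 for ATP6V0E1, -0.45 for ATP6V1B2 and -0.38 for ATP6V0A1. TFE3 differed in the same direction, by -0.47, and its part in these differences was not tested.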

How the results depend on the processing

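Of 89 calls of a member in a comparison, 62 held in every alternative, 27 ended in at least 1 and 0 reversed. For Dox plus inhibitor against inhibitor, 14 members were higher as deposited, 7 with median-ratio scaling, 6 with only the groups compared in the fit and 7 to 16 with single libraries left out. Of all genes, 12.2%, 5.56%, 4.74% and 5.4% to 16% were called higher in these fits. For inhibitor against vehicle, 13 members were lower, 7 with median-ratio scaling, 8 with quantile normalization, 7 with only the groups compared and 9 to 13 with single libraries left out. Of all genes, 26.3%, 14.5%, 16.4%, 17.1% and 19.5% to 27% were called lower in these fits. In the same comparison 6 members were higher, 2 with only the groups compared and 3 to 6 with single libraries left out. Of all genes, 11.7%, 8.94% and 9.59% to 12.7% were called higher in these fits. For Dox plus inhibitor against Dox, 2 members were higher (11.3% of all genes), and 1 with a mean FPKM of at least 5 (12.1%). In the same comparison 25 members were lower (20.8% of all genes), and 22 to 25 with single libraries left out (15.1% to 23.2%). For Dox against vehicle, 21 members were higher (10.6% of all genes), and 20 to 23 with single libraries left out (6.65% to 12.5%). The interaction was negative in 6 members, 11 with the length and GC trend removed, 14 with that and the replicate block, and 3 to 6 with single libraries left out. Of all genes, 1.91%, 3.89%, 4.66% and 0.938% to 2.33% were negative in these fits, so calls rose over all genes too where the trend was removed. With the replicate block alone, calls rose over all genes too. In that fit 26 members were higher with Dox against vehicle (17.6% of all genes) and 19 with Dox plus inhibitor against inhibitor (26.5%). Added for Dox against vehicle were ATP6V0E2 (0.32, adjusted p = 0.022), ATP6AP2 (0.18, adjusted p = 0.021), CLCN3 (0.24, adjusted p = 0.042), DMXL1 (0.52, adjusted p = 0.0096) and DMXL2 (0.45, adjusted p = 0.026). Lower were 17 members with inhibitor against vehicle (34.8%, with ATP6V0B, ATP6V1E1, ATP6V1G1 and OSTM1 added) and 26 with Dox plus inhibitor against Dox (27.3%). The interaction was negative in 9 members (3% of all genes), and no member's call ended. In the block fit of only the groups compared, the WDR7 call ended for Dox against vehicle (0.35, adjusted p = 0.062) and with the inhibitor (0.29, adjusted p = 0.087). The causes were not tested. Where a library was left out, the remaining ones were assumed to vary like those of the other groups. The FPKM table holds no read counts, so a count model was not used and the precision at low levels (ATP6V0A4, ATP6V1G2, CLCN4, CLCN5) is unknown.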
